A study of Mus musculus with 13 samples.

Results

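The genes of glycolysis and of the transcriptional response to low oxygen were followed through the conversion of mouse fibroblasts toward neural stem cells. The module held 33 genes, chosen by symbol: 4 transporters of glucose and lactate, 15 glycolytic enzymes, 4 genes at the branch between lactate and mitochondrial pyruvate, 9 targets or feedback regulators of the hypoxia-inducible factors (HIF), and the HIF subunit gene Hif1a. All 33 symbols were found among the 30332 genes of the RNA-seq count table, and all 33 are protein-coding in RefSeq. Each of 9 libraries came from cells of Nestin::GFP transgenic mice, in which Nestin regulatory sequence drives green fluorescent protein (GFP), so a sort reports Nestin reporter activity. Embryonic fibroblasts (MEFs) were isolated at E13.5 and are labelled passage 3. After 1 day (D1) and 2 days (D2) of the VCR cocktail they were sequenced unsorted. After 4 days (D4) and 8 days (D8) of VCR they were separated by GFP into a positive and a negative fraction. VCR combines valproic acid, which inhibits histone deacetylases, CHIR99021, which inhibits the kinase GSK3, and RepSox, which inhibits the type I TGF-beta receptor. The protocol lists 21% or 5% O2 for the VCR cultures, and the labels tie no library to either level. A further library, called GF here, held sorted GFP-positive cells from MEFs that received no VCR and were given growth factors: 2 days of IL6 (50 ng/ml), 4 days of FGF5 (50 ng/ml) plus LIF (100 ng/ml), and EGF with bFGF (both 20 ng/ml) from there on. The NSC library held sorted GFP-positive primary neural stem cells, also labelled passage 3, for which the labels give no brain region or age. Untreated, unsorted MEFs (D0) were the starting cells. The labels do not say how many embryos or cultures stood behind a library.

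Glycolysis splits glucose into pyruvate in the cytosol, and lactate dehydrogenase then interconverts pyruvate and lactate, which monocarboxylate transporters carry across the membrane. In low oxygen the HIF alpha subunit escapes hydroxylation by the Egln prolyl hydroxylases, pairs with Arnt and raises transcription of glycolytic enzymes, glucose transporters and its own hydroxylase Egln3. Proliferating fibroblasts and neural progenitors are both known to use glycolysis heavily, and neurons and astrocytes express separate isoforms of several of its enzymes.

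With 1 library per group there were no replicates, and every difference below is between single libraries. Levels are CPM, a gene's estimated count scaled by its library total, which was 20104940 to 36751356. A member was called higher or lower where log2(CPM + 1) differed by 1 or more, which is 2-fold, provided that either library of the pair reached 5 CPM. This scale understates changes of low genes. Folds are ratios of CPM, and the range in parentheses after a fold is its exact conditional binomial 95% interval, which covers counting error only. Transcript length was not corrected for, so levels of different genes are not compared. The D0 library serves as the base of 8 of the 12 comparisons, which are therefore not independent of each other. Scaling mattered: over the 13731 genes that reached 5 CPM in some library, the median gene stood above D0 by 0.02 (log2) in D1, 0.03 in D2, 0.51 in GFP-positive D4, 0.25 in GFP-negative D4, 0.45 in GFP-positive D8, 0.26 in GFP-negative D8, 0.19 in GF and 0.88 in NSC. Mitochondrial transcripts took 0.834% to 3.39% of counts. The reporter's own gene Nes stood at 784 CPM in GFP-positive D4 against 25.9 CPM in GFP-negative D4, at 721 against 32.2 at D8, at 344 in NSC and at 51.0 in GF, against 7.59 in D0. The 10 fibroblast markers, from Col1a1 to Fap, summed to 2658 and 2511 CPM in the GFP-positive VCR libraries, 6464 and 8013 in the GFP-negative ones, 16451 in GF and 345 in NSC, where Dcn and Lum had 0 counts, against 14036 in D0. Single markers went both ways: in GFP-negative D8, Col1a1 had 415 CPM against 5658 in D0, and Dcn had 3355 against 613. The 10 neural stem markers summed to 915 and 884 CPM in the GFP-positive VCR libraries, 109 in GF and 1172 in NSC, against 13.4 in D0, with Hes5 and Olig2 at 0 counts in D0. The GF library, labelled GFP-positive, thus carried more fibroblast marker RNA than D0 and less neural stem marker RNA than the other sorted GFP-positive libraries.

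The promoters below are shown because the results turn on their genes: the lactate exporter gene Slc16a3, the lactate dehydrogenase pair Ldha and Ldhb, the prolyl hydroxylase pair Egln1 and Egln3, and the collagen prolyl hydroxylase gene P4ha1. Each line gives the 250 bases before the annotated start from RefSeq on GRCm38.p6, 5′ to 3′ along the gene. Capitals mark the letters ACGTG or GCGTG, the core of the hypoxia response element, on either strand (CACGT and CACGC when read along the other strand). CACGTG, the E-box, holds ACGTG on both strands and is therefore counted on both. Slc16a3 lies at chr11:120948817-120949066, plus strand, the first of 2 Ldha windows at chr7:46845554-46845803, plus strand, Ldhb at chr6:142507958-142508207, minus strand, Egln1 at chr8:124949255-124949504, minus strand, Egln3 at chr12:54203875-54204124, minus strand, and P4ha1 at chr10:59323046-59323295, plus strand.
Slc16a3: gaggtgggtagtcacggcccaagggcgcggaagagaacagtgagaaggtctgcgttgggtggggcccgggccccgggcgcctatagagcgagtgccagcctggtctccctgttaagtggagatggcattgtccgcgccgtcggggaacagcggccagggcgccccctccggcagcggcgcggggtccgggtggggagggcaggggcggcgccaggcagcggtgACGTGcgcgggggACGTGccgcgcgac
Ldha: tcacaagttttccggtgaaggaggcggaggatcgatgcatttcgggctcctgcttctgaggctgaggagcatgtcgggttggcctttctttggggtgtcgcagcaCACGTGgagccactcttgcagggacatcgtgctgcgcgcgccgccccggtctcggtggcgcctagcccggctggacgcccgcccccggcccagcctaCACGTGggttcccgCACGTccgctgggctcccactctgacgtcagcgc
Ldhb: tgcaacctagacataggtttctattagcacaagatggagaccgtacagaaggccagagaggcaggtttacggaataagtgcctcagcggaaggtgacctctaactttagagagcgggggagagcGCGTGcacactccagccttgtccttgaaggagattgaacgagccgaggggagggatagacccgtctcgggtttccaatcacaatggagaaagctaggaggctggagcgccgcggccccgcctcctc
Egln1: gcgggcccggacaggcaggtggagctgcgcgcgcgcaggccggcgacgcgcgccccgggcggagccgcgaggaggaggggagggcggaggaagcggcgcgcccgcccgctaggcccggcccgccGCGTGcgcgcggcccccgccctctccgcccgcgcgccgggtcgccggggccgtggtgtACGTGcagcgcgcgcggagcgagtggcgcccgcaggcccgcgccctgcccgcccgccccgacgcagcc
Egln3: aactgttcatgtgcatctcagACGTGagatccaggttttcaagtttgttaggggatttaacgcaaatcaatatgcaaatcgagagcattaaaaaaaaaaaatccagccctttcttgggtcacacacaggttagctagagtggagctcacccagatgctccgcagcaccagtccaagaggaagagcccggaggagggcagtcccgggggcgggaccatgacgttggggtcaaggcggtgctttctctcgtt
P4ha1: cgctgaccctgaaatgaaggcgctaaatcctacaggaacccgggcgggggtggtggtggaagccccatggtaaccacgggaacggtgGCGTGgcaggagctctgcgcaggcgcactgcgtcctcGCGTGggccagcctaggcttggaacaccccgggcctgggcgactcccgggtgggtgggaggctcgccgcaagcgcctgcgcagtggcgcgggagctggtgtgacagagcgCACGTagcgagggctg
Counted from the annotated start, Slc16a3 held ACGTG at -27 and -14, and Egln3 held it once, at -229. Ldha held ACGTG on both strands of a CACGTG at -145 and of another at -48, and once more at -34, with GCGTG at 26 and 38 in the transcribed stretch that is not shown. Ldhb held no ACGTG and a single GCGTG at -126. Egln1 held GCGTG at -126 and ACGTG at -68, and P4ha1 held GCGTG at -163 and -126 and ACGTG at -16. Over the full table windows of 300 bases, 250 before to 50 after a start, ACGTG occurred in 25 of 45 member windows (55.6%), beside 6447 of 32851 windows of all genes (19.6%). GCGTG occurred in 26 member windows (57.8%), beside 32.4% of all windows. Counted by gene, 29 of the 32 members with a window (90.6%) held either motif in some window, beside 46.7% of 27025 genes. Eno2, Gpi1 and Tpi1 were the members with a window that held neither. Slc2a3 was the member with no window in the table. A match describes letters only, and many promoters of expressed genes are rich in CG.

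In the series as a whole the module did not move as 1 block. Of the 32 members that reached 5 CPM in some library, 14 had their highest level in GF, beside 16.7% of all genes, and 20 had their lowest in NSC, beside 18.04% of all genes. NSC held the highest level of 3 members (Aldoc, Pfkm and Ankrd37), beside 40.0% of all genes. With TMM scaling the counts were 15 for GF, 25 lowest in NSC and 1 highest in NSC, and all genes were lowest in NSC in 32.0%. Adm, which encodes the vasodilator peptide adrenomedullin, was the member under 5 CPM everywhere, with 0.138 in D0, 0.276 in D1, 0.595 in D2, 0.0589 in GFP-positive D4, 1.37 in GFP-negative D4, 0.355 in GFP-positive D8, 2.04 in GFP-negative D8, 0.861 in GF and 0.342 in NSC. Its highest level, in GFP-negative D8, was too low for a comparison.

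**Figure D1:**
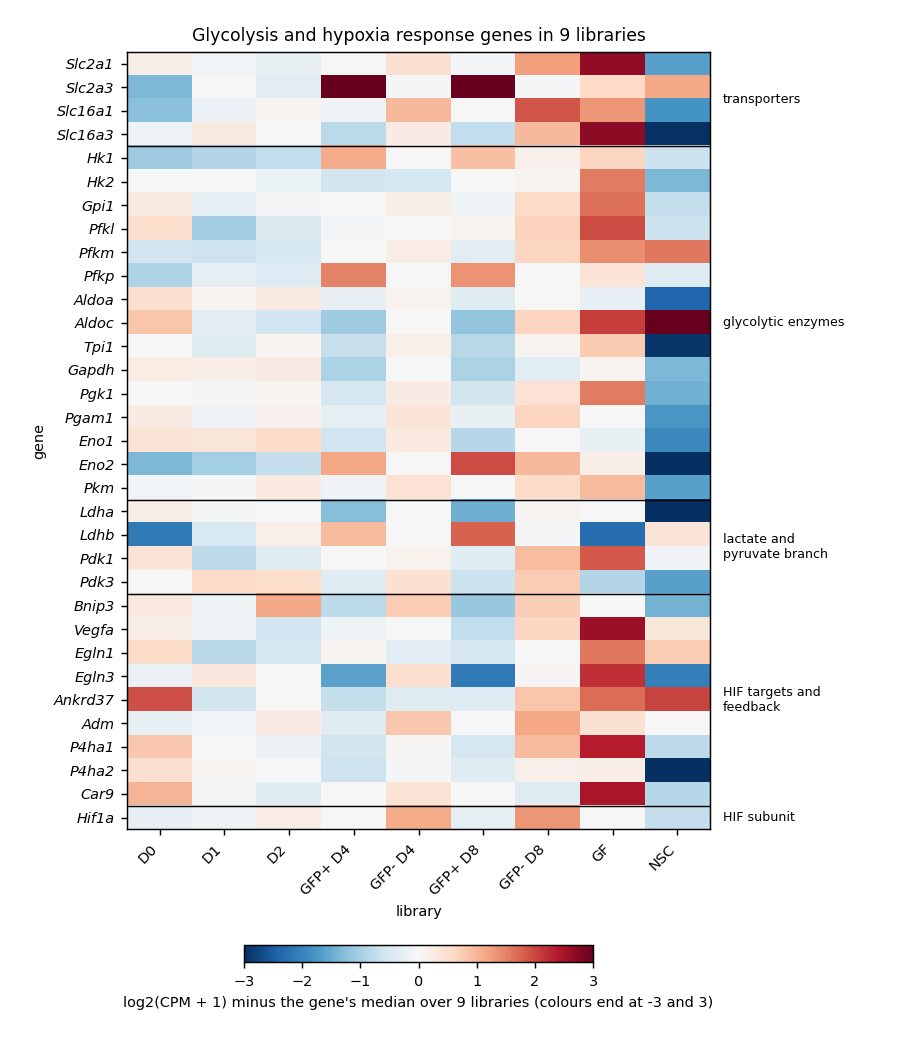
Levels of the 33 genes (rows, grouped by role) in the 9 libraries (columns), as log2(CPM + 1) minus the gene's own median over the 9 libraries, with red above and blue below the median. Slc2a3 is darkest red in the GFP-positive D4 and D8 columns (204 and 243 CPM), the GF column is red for the transporters and for Vegfa, Egln3, P4ha1 and Car9, and the NSC column is blue for most enzymes.

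Among the transporters, both glucose carriers differed between the sorted fractions, in opposite directions by D8. Slc2a1 (chr4:119108745-119137330) encodes GLUT1, the basal glucose carrier of most cells, and had CPM of 73.4 in D0, 61.0 in D1, 55.2 in D2, 64.8 in GFP-positive D4, 90.0 in GFP-negative D4, 63.1 in GFP-positive D8, 154 in GFP-negative D8, 412 in GF and 20.4 in NSC. GF stood 5.61-fold higher (5.38 to 5.86) than D0 and NSC 3.60-fold lower (3.24 to 4.004) than D0. Slc2a3 (chr6:122727809-122802363) encodes GLUT3, the high-affinity carrier known from neurons, and had CPM of 6.39 in D0, 17.8 in D1, 14.03 in D2, 204 in GFP-positive D4, 17.4 in GFP-negative D4, 243 in GFP-positive D8, 16.9 in GFP-negative D8, 27.3 in GF and 41.1 in NSC. GFP-positive VCR cells stood far above every other library, 11.7-fold higher (10.6 to 12.8) than GFP-negative cells at D4 and 14.4-fold higher (12.99 to 15.9) at D8. Against D0 the GFP-positive folds were 31.9-fold higher (28.0 to 36.4) at D4 and 38.1-fold higher (33.4 to 43.5) at D8. GLUT3 is also known from macrophages, and 8 macrophage markers summed to 253 and 145 CPM in the GFP-positive libraries at D4 and D8, with Aif1 at 0 counts in both, against 28.7 and 21.4 in the GFP-negative ones. The sum was 368 CPM in NSC, of which Csf1r gave 245. Lyz2 had 185 and 83.5 CPM in the GFP-positive libraries and 45.8 in NSC, and Cd68 had 47.8 and 44.96, with 14.2 in NSC. The part of such cells in the Slc2a3 level was not tested.

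The monocarboxylate carriers were lower in GFP-positive than in GFP-negative cells. Slc16a1 (chr3:104638664-104658462), which encodes MCT1, had CPM of 31.3 in D0, 67.7 in D1, 81.1 in D2, 71.4 in GFP-positive D4, 152 in GFP-negative D4, 76.5 in GFP-positive D8, 287 in GFP-negative D8, 192 in GF and 21.3 in NSC. Every library except NSC stood above D0 by 2-fold or more, though with median ratio or TMM scaling both GFP-positive VCR libraries lost that call. GFP-positive cells were 2.13-fold lower (2.02 to 2.24) than GFP-negative cells at D4 and 3.75-fold lower (3.57 to 3.93) at D8. Slc16a3 (chr11:120948484-120959000) encodes MCT4, the lactate exporter of highly glycolytic cells, and had CPM of 62.0 in D0, 82.1 in D1, 67.7 in D2, 38.0 in GFP-positive D4, 80.5 in GFP-negative D4, 40.4 in GFP-positive D8, 135 in GFP-negative D8, 442 in GF and 7.76 in NSC. GF was 7.12-fold higher (6.80 to 7.45) than D0 and 10.9-fold higher (10.3 to 11.6) than GFP-positive D8, while NSC was 7.995-fold lower (6.80 to 9.46) than D0. GFP-positive cells were 2.12-fold lower (1.98 to 2.27) than GFP-negative cells at D4 and 3.34-fold lower (3.12 to 3.57) at D8. Slc16a3 thus lay at the opposite ends of its range in GF and NSC.

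The 15 glycolytic enzymes together took 1.28% of all estimated counts in D0, 1.17% in D1, 1.34% in D2, 0.837% in GFP-positive D4, 1.28% in GFP-negative D4, 0.818% in GFP-positive D8, 1.24% in GFP-negative D8, 1.51% in GF and 0.368% in NSC. The GFP-negative libraries lay close to D0, both GFP-positive VCR libraries lay under it, and NSC was 3.47-fold below D0. The 95% binomial interval (Clopper-Pearson) of each share was narrow, from 0.834% to 0.840% in GFP-positive D4, and covers counting error only. Gapdh, Pkm and Eno1 are among the 20 most abundant genes and carry much of this sum. Without Gapdh the shares were 0.685% in GFP-positive D4 and 0.990% in GFP-negative D4, 0.254% in NSC and 0.936% in D0. Ribosomal protein genes took 4.17% of counts in D0, 1.73% and 1.74% in GFP-positive D4 and D8, and 3.73% and 3.08% in GFP-negative ones. In GF and NSC they took 6.52% and 1.23%. The part of a general shift among abundant genes in the enzyme shares was not tested. In bulk RNA, fewer cells of a type and less RNA per cell cannot be told apart.

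**Figure D2:**
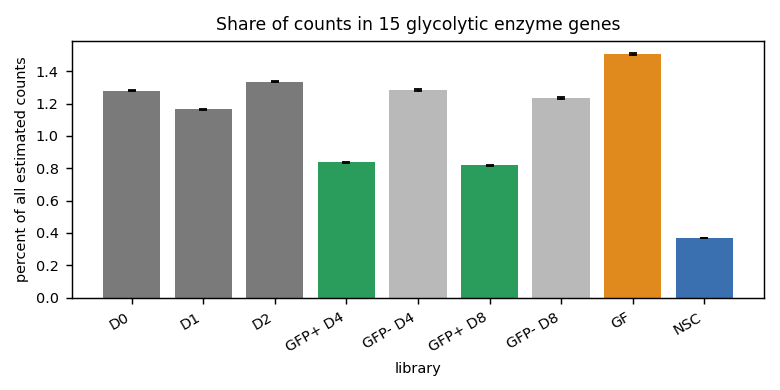
Percent of all estimated counts in the 15 glycolytic enzyme genes (vertical axis, from 0) in each of the 9 libraries, 1 bar per library, with exact binomial 95% intervals that cover counting error only. The GFP-positive D4 and D8 bars (0.837% and 0.818%) are lower than the GFP-negative ones (1.28% and 1.24%), GF is the highest at 1.51% and NSC the lowest at 0.368%.

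At the first committed steps the isozymes diverged. Hk1 (chr10:62268855-62379920), the housekeeping hexokinase bound to mitochondria, had CPM of 49.8 in D0, 57.7 in D1, 63.2 in D2, 232 in GFP-positive D4, 107 in GFP-negative D4, 201 in GFP-positive D8, 119.5 in GFP-negative D8, 166 in GF and 67.5 in NSC. GFP-positive cells were 2.17-fold higher (2.08 to 2.27) than GFP-negative cells at D4, while at D8 the fold was 1.68 and not called. Hk2 (chr6:82725025-82774454), the insulin- and HIF-responsive hexokinase, had CPM of 14.2 in D0, 14.1 in D1, 12.1 in D2, 9.34 in GFP-positive D4, 9.54 in GFP-negative D4, 14.2 in GFP-positive D8, 14.9 in GFP-negative D8, 43.8 in GF and 4.98 in NSC. Hk2 was highest in GF, 3.08-fold higher (2.77 to 3.43) than D0, and under 5 CPM in NSC. Gpi1, which converts glucose 6-phosphate to fructose 6-phosphate, had CPM of 272 in D0, 183 in D1, 215 in D2, 224 in GFP-positive D4, 254 in GFP-negative D4, 206 in GFP-positive D8, 329 in GFP-negative D8, 705 in GF and 136 in NSC. GF was 2.60-fold higher (2.53 to 2.66) than D0, and the other libraries stayed within 2-fold of D0. The subunits of phosphofructokinase, the rate-setting enzyme of the pathway, each took their own course. Pfkl (chr10:77986947-78009807), the liver-type subunit, had CPM of 133 in D0, 44.5 in D1, 69.0 in D2, 90.2 in GFP-positive D4, 93.0 in GFP-negative D4, 97.9 in GFP-positive D8, 151 in GFP-negative D8, 367 in GF and 59.2 in NSC. Pfkl was 2.997-fold lower (2.83 to 3.18) in D1 than in D0 and 2.75-fold higher (2.65 to 2.85) in GF than in D0. Pfkp (chr13:6579874-6649060), the platelet-type subunit, had CPM of 58.3 in D0, 91.6 in D1, 85.6 in D2, 314 in GFP-positive D4, 113 in GFP-negative D4, 284 in GFP-positive D8, 112 in GFP-negative D8, 149.6 in GF and 84.9 in NSC. GFP-positive VCR cells exceeded all other libraries in Pfkp, 2.78-fold higher (2.67 to 2.89) than GFP-negative cells at D4 and 2.54-fold higher (2.43 to 2.66) at D8. Pfkm (chr15:98092589-98132447), the muscle-type subunit, had CPM of 15.7 in D0, 15.2 in D1, 16.9 in D2, 23.8 in GFP-positive D4, 27.7 in GFP-negative D4, 19.0 in GFP-positive D8, 37.4 in GFP-negative D8, 64.4 in GF and 73.4 in NSC. Pfkm was highest in NSC, 4.67-fold higher (4.24 to 5.15) than in D0.

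The enzymes that split and oxidise the sugar were lowest in NSC, apart from the brain-type aldolase. Aldoa (chr7:126795234-126800994), the muscle-type and ubiquitous aldolase, had CPM of 1755 in D0, 1287 in D1, 1495 in D2, 1040.5 in GFP-positive D4, 1330.3 in GFP-negative D4, 971 in GFP-positive D8, 1241 in GFP-negative D8, 1042 in GF and 236 in NSC. Aldoc (chr11:78323073-78327781), the aldolase known from astrocytes and brain, had CPM of 10.7 in D0, 4.31 in D1, 3.44 in D2, 2.15 in GFP-positive D4, 5.56 in GFP-negative D4, 1.87 in GFP-positive D8, 9.19 in GFP-negative D8, 26.8 in GF and 116 in NSC. NSC was 7.43-fold lower (7.21 to 7.65) than D0 for Aldoa and 10.8-fold higher (9.73 to 12.1) for Aldoc. GFP-positive D8 was 62.0-fold lower (47.3 to 82.7) than NSC for Aldoc, the largest downward difference of any member in that comparison. Tpi1, the triose phosphate isomerase, had CPM of 776 in D0, 606 in D1, 808 in D2, 477 in GFP-positive D4, 868 in GFP-negative D4, 432 in GFP-positive D8, 826 in GFP-negative D8, 1329 in GF and 102 in NSC. NSC was 7.60-fold lower (7.26 to 7.95) than D0 for Tpi1. Gapdh (chr6:125161852-125166467), the dehydrogenase often used as a reference gene, had CPM of 3429.8 in D0, 3339 in D1, 3469 in D2, 1519 in GFP-positive D4, 2928 in GFP-negative D4, 1515 in GFP-positive D8, 2357 in GFP-negative D8, 3120.0 in GF and 1147 in NSC. Gapdh was 2.26-fold lower (2.24 to 2.28) in GFP-positive D4, 2.26-fold lower (2.24 to 2.29) in GFP-positive D8 and 2.99-fold lower (2.95 to 3.03) in NSC than in D0. Pgk1, which makes the first ATP of the pathway, had CPM of 392 in D0, 373 in D1, 407 in D2, 277 in GFP-positive D4, 465 in GFP-negative D4, 267 in GFP-positive D8, 528 in GFP-negative D8, 1164 in GF and 143 in NSC. Pgk1 was highest in GF, 2.97-fold higher (2.91 to 3.03) than in D0.

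The enzymes of the last 3 steps were all lowest in NSC, and Eno2 was highest in GFP-positive VCR cells. Pgam1, the mutase that moves the phosphate group, had CPM of 912 in D0, 718 in D1, 840.1 in D2, 628 in GFP-positive D4, 998 in GFP-negative D4, 658 in GFP-positive D8, 1196 in GFP-negative D8, 769 in GF and 229 in NSC. Counts assigned to its processed copy Pgam1-ps2 came to as much as 12.9% of those of Pgam1, in GF, so reads may be split between them there. Eno1 (chr4:150236708-150248879), the ubiquitous enolase, had CPM of 2868 in D0, 2776 in D1, 3148 in D2, 1434 in GFP-positive D4, 2629 in GFP-negative D4, 1193 in GFP-positive D8, 2155 in GFP-negative D8, 1854 in GF and 564 in NSC. NSC was 3.99-fold lower (3.87 to 4.11) than D0 for Pgam1 and 5.08-fold lower (4.98 to 5.18) for Eno1. Eno2 (chr6:124760053-124769673), the neuron-type enolase, had CPM of 11.1 in D0, 14.1 in D1, 17.8 in D2, 67.9 in GFP-positive D4, 29.7 in GFP-negative D4, 119 in GFP-positive D8, 59.4 in GFP-negative D8, 33.6 in GF and 2.59 in NSC. Eno2 was 6.10-fold higher (5.50 to 6.80) in GFP-positive D4 and 10.7-fold higher (9.67 to 11.9) in GFP-positive D8 than in D0, and GFP-positive D8 was 46.1-fold higher (35.1 to 61.9) than NSC. The lowest Eno2 level of all libraries was thus that of the primary neural stem cells. Pkm (chr9:59656576-59679372), the pyruvate kinase whose splice forms M1 and M2 are summed here, had CPM of 2090.2 in D0, 2135 in D1, 2717 in D2, 2034 in GFP-positive D4, 2975 in GFP-negative D4, 2203 in GFP-positive D8, 3220.2 in GFP-negative D8, 4249 in GF and 717 in NSC. Pkm was 2.03-fold higher (2.01 to 2.05) in GF and 2.91-fold lower (2.86 to 2.97) in NSC than in D0, and the GF call was lost with median ratio or TMM scaling.

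At the pyruvate branch, Ldha and Ldhb ran opposite to each other in the GFP-positive VCR cells and in NSC. Ldha (chr7:46842274-46855627) encodes the A subunit of lactate dehydrogenase, which favours lactate formation, and had CPM of 2514 in D0, 2179 in D1, 2233 in D2, 917 in GFP-positive D4, 2232 in GFP-negative D4, 802 in GFP-positive D8, 2346 in GFP-negative D8, 2248 in GF and 128 in NSC. Ldhb (chr6:142490249-142507957) encodes the B subunit of heart and brain, which favours pyruvate formation, and had CPM of 64.3 in D0, 203 in D1, 314 in D2, 542 in GFP-positive D4, 281 in GFP-negative D4, 956 in GFP-positive D8, 273 in GFP-negative D8, 56.8 in GF and 367 in NSC. GFP-positive cells were 2.43-fold lower (2.40 to 2.47) than GFP-negative cells for Ldha at D4 and 2.93-fold lower (2.88 to 2.97) at D8. Ldhb was 3.49-fold higher (3.40 to 3.59) in GFP-positive than in GFP-negative cells at D8, and at D4 the fold was 1.93 and not called. Every VCR library stood above D0 for Ldhb, already 3.16-fold higher (3.02 to 3.31) in D1, whereas GF (56.8 CPM) stayed near D0 (64.3 CPM). NSC was 19.7-fold lower (18.9 to 20.5) for Ldha and 5.71-fold higher (5.45 to 5.99) for Ldhb than D0. The promoter windows printed above differ in the same pair, with ACGTG in that of Ldha and none in that of Ldhb, and no use of either motif was measured. Pdk1, a HIF target whose kinase shuts pyruvate out of the mitochondrial dehydrogenase, had CPM of 20.9 in D0, 8.53 in D1, 11.7 in D2, 15.4 in GFP-positive D4, 16.6 in GFP-negative D4, 11.7 in GFP-positive D8, 30.3 in GFP-negative D8, 58.3 in GF and 14.2 in NSC. Pdk1 was 2.45-fold lower (2.13 to 2.81) in D1 and 2.79-fold higher (2.55 to 3.06) in GF than in D0. Pdk3, another kinase of the same family, had CPM of 59.2 in D0, 89.2 in D1, 85.4 in D2, 46.0 in GFP-positive D4, 81.6 in GFP-negative D4, 37.3 in GFP-positive D8, 101 in GFP-negative D8, 31.6 in GF and 18.6 in NSC. Pdk3 was 2.71-fold lower (2.52 to 2.91) in GFP-positive than in GFP-negative cells at D8 and 3.18-fold lower (2.85 to 3.56) in NSC than in D0.

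Egln3 and Egln1 were lower in GFP-positive VCR cells than in D0 and higher in GF than in D0, though Egln1 was not called at D4. In D1, Egln1 was lower than in D0 and Egln3 was not. Ankrd37 was lower than in D0 in the GFP-positive VCR cells and, without a call, in GF. Hif1a (chr12:73901324-73947554), the oxygen-labile HIF subunit, had CPM of 247 in D0, 268 in D1, 337 in D2, 291 in GFP-positive D4, 632 in GFP-negative D4, 242 in GFP-positive D8, 724 in GFP-negative D8, 292 in GF and 177 in NSC. GFP-positive cells were 2.17-fold lower (2.12 to 2.23) than GFP-negative cells at D4 and 2.99-fold lower (2.91 to 3.08) at D8, and they lay close to D0, 1.18-fold of it at D4 and 0.980-fold at D8. Its protein is controlled mainly by hydroxylation and decay, which RNA does not show. Egln1 (chr8:124908587-124949254) encodes PHD2, the main oxygen sensor of the HIF pathway, and had CPM of 58.1 in D0, 21.7 in D1, 26.8 in D2, 40.9 in GFP-positive D4, 31.2 in GFP-negative D4, 28.1 in GFP-positive D8, 39.3 in GFP-negative D8, 120.2 in GF and 67.6 in NSC. Egln3 (chr12:54178981-54203874) encodes PHD3, a hydroxylase that HIF itself induces, and had CPM of 6.50 in D0, 9.81 in D1, 7.51 in D2, 1.78 in GFP-positive D4, 11.01 in GFP-negative D4, 0.970 in GFP-positive D8, 7.70 in GFP-negative D8, 37.7 in GF and 1.04 in NSC. Egln3 was 6.18-fold lower (4.69 to 8.26) in GFP-positive than in GFP-negative cells at D4 and 7.94-fold lower (5.31 to 12.3) at D8. GF was 5.80-fold higher (5.02 to 6.73) than D0 and 38.9-fold higher (26.7 to 58.9) than GFP-positive D8. In the GFP-positive VCR libraries and NSC, Egln3 was under 5 CPM, so against D0 it could only be called lower. Ankrd37 (chr8:45996908-46000414), a small ankyrin-repeat gene used as a marker of HIF activity, had CPM of 7.18 in D0, 0.446 in D1, 1.13 in D2, 0.287 in GFP-positive D4, 0.658 in GFP-negative D4, 0.623 in GFP-positive D8, 2.77 in GFP-negative D8, 5.78 in GF and 7.60 in NSC. Ankrd37 was 16.1-fold lower (9.60 to 29.2) in D1 and 25.0-fold lower (13.4 to 52.7) in GFP-positive D4 than in D0. Its level passed 5 CPM in D0, GF and NSC alone.

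Among the effector targets, Vegfa (chr17:46016993-46032377), the angiogenic growth factor, had CPM of 52.8 in D0, 42.3 in D1, 30.4 in D2, 41.2 in GFP-positive D4, 45.5 in GFP-negative D4, 26.7 in GFP-positive D8, 71.1 in GFP-negative D8, 275 in GF and 58.2 in NSC. GF was 5.20-fold higher (4.94 to 5.48) than D0 and 10.3-fold higher (9.54 to 11.1) than GFP-positive D8, and no other library was called against D0 on this scale. Bnip3 (chr7:138890836-138909506), which promotes removal of mitochondria, had CPM of 145 in D0, 107 in D1, 264 in D2, 68.8 in GFP-positive D4, 202 in GFP-negative D4, 53.3 in GFP-positive D8, 199.7 in GFP-negative D8, 118 in GF and 43.6 in NSC. GFP-positive cells were 2.93-fold lower (2.79 to 3.08) than GFP-negative cells at D4 and 3.75-fold lower (3.54 to 3.97) at D8. Collagen prolyl hydroxylation is carried out by the P4ha subunits, which fibroblasts need for collagen. P4ha1 (chr10:59323197-59373304) had CPM of 179.6 in D0, 103 in D1, 91.3 in D2, 69.6 in GFP-positive D4, 106 in GFP-negative D4, 72.2 in GFP-positive D8, 199 in GFP-negative D8, 532 in GF and 59.2 in NSC. P4ha2 (chr11:54100924-54131668) had CPM of 238 in D0, 177 in D1, 170.1 in D2, 110.0 in GFP-positive D4, 166 in GFP-negative D4, 131 in GFP-positive D8, 189.8 in GFP-negative D8, 194 in GF and 11.3 in NSC. P4ha1 was 2.96-fold higher (2.87 to 3.05) in GF than in D0, and P4ha2 was 21.0-fold lower (18.4 to 24.0) in NSC than in D0, with little difference between GF and D0. The summed fibroblast markers given above were higher in GF than in D0 and lowest in NSC, though single markers departed from the sum: Col1a1 had 3554 CPM in GF against 5658 in D0, and Pdgfra had 168 CPM in NSC against 79.2 in D0. Their part in the P4ha levels was not tested. Car9 (chr4:43507026-43513729), a carbonic anhydrase of the cell surface that helps control pH, had CPM of 6.10 in D0, 2.35 in D1, 1.70 in D2, 2.52 in GFP-positive D4, 3.62 in GFP-negative D4, 2.48 in GFP-positive D8, 1.68 in GFP-negative D8, 17.9 in GF and 0.909 in NSC. Car9 passed 5 CPM in D0 and GF alone, and was 2.93-fold higher (2.48 to 3.47) in GF than in D0. Since the labels do not give the oxygen each library met, it was not tested against these levels.

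Ratios between paired isoforms within a library do not depend on how libraries are scaled, and only their change between libraries is read here. The ratio of Slc2a3 to Slc2a1 counts was 0.0871 in D0, 0.292 in D1, 0.254 in D2, 3.14 in GFP-positive D4, 0.194 in GFP-negative D4, 3.86 in GFP-positive D8, 0.110 in GFP-negative D8, 0.0663 in GF and 2.02 in NSC. It was 16.2 times higher in GFP-positive than in GFP-negative cells at D4 and 35.0 times at D8. The ratio of Ldhb to Ldha was 0.0256 in D0, 0.0932 in D1, 0.140 in D2, 0.591 in GFP-positive D4, 0.126 in GFP-negative D4, 1.19 in GFP-positive D8, 0.117 in GFP-negative D8, 0.0253 in GF and 2.88 in NSC. It was 4.69 times higher in GFP-positive than in GFP-negative cells at D4, 10.2 times at D8, and 113 times higher in NSC than in D0. The ratio of Pfkp to Pfkl was 0.437 in D0, 2.06 in D1, 1.24 in D2, 3.48 in GFP-positive D4, 1.22 in GFP-negative D4, 2.90 in GFP-positive D8, 0.740 in GFP-negative D8, 0.408 in GF and 1.43 in NSC. GFP-positive cells exceeded GFP-negative cells 2.86 times at D4 and 3.91 times at D8 in this ratio. The ratio of Eno2 to Eno1 was 0.00388 in D0, 0.00508 in D1, 0.00566 in D2, 0.0474 in GFP-positive D4, 0.0113 in GFP-negative D4, 0.1000 in GFP-positive D8, 0.0276 in GFP-negative D8, 0.0181 in GF and 0.00458 in NSC. It was 4.19 times higher in GFP-positive than in GFP-negative cells at D4 and 3.62 times at D8, while NSC was close to D0. These 4 ratios, picked from 11 pairs, were highest in a GFP-positive VCR library or in NSC. All 4 were higher in GFP-positive than in GFP-negative cells on both days, while other pairs shifted the opposite way.

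The remaining ratios shifted the other way between the fractions or separated other libraries. Egln3 to Egln1, Aldoc to Aldoa and Hk2 to Hk1 were lower in GFP-positive than in GFP-negative cells on both days. The ratio of Aldoc to Aldoa was 0.00609 in D0, 0.00335 in D1, 0.00230 in D2, 0.00207 in GFP-positive D4, 0.00418 in GFP-negative D4, 0.00193 in GFP-positive D8, 0.00740 in GFP-negative D8, 0.0257 in GF and 0.490 in NSC, and NSC exceeded D0 80.5 times. The ratio of Egln3 to Egln1 was 0.112 in D0, 0.452 in D1, 0.280 in D2, 0.0435 in GFP-positive D4, 0.353 in GFP-negative D4, 0.0345 in GFP-positive D8, 0.196 in GFP-negative D8, 0.314 in GF and 0.0155 in NSC. It was 8.11 times lower in GFP-positive than in GFP-negative cells at D4 and 5.67 times lower at D8, and 7.25 times lower in NSC than in D0. Pfkm to Pfkl was 1.24 in NSC and 0.118 in D0. Hk2 to Hk1 was 0.0403 in GFP-positive and 0.0894 in GFP-negative D4, and 0.0737 in NSC against 0.286 in D0. P4ha2 to P4ha1 fell to 0.365 in GF and 0.191 in NSC, against 1.32 in D0. Between the fractions it was alike at D4 (1.58 in GFP-positive and 1.56 in GFP-negative cells). At D8 it was 1.91 times higher in GFP-positive cells (1.82 against 0.954), the direction of the 4 ratios above. Pdk3 to Pdk1 was 0.542 in GF against 2.83 in D0, and 10.5 in D1. Slc16a3 to Slc16a1 was 0.532 in GFP-positive and 0.530 in GFP-negative D4, so both carriers differed between the fractions by like folds, and it was 0.364 in NSC against 1.98 in D0.

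**Figure D3:**
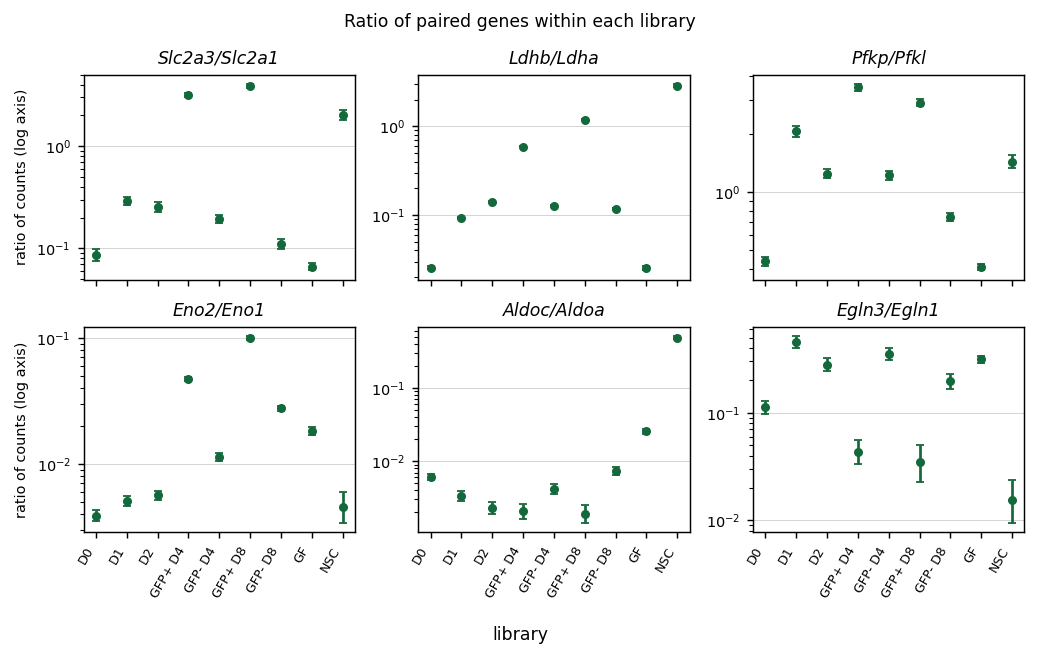
Ratio of the counts of 2 paired genes within each of the 9 libraries (log axis), in 6 panels, with exact binomial 95% intervals that cover counting error only. Slc2a3/Slc2a1, Ldhb/Ldha, Pfkp/Pfkl and Eno2/Eno1 are higher in GFP-positive than in GFP-negative cells at D4 and D8, Aldoc/Aldoa stands apart in NSC (0.490), and Egln3/Egln1 is low in GFP-positive VCR cells and NSC.

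Comparisons between libraries put these genes beside the rest of the transcriptome. In the first days of VCR the carrier genes Slc2a3 and Slc16a1 and the dehydrogenase gene Ldhb were higher than in untreated MEFs. Of the HIF targets, Egln1 was called lower, and so were Ankrd37 and Car9, which could be called in no other direction. Without regard to calls, 2 of 9 HIF targets lay above D0 in D1 and 3 of 9 in D2. In D1, 3 of the 32 members compared were higher than in D0, beside 6.63% of all genes, and 6 were lower, beside 5.92% of all genes. The higher ones were Ldhb, Slc2a3 and Slc16a1, and the lower ones were Ankrd37, Pfkl, Egln1, Pdk1, Aldoc and Car9. Egln1 was 2.68-fold lower (2.46 to 2.92) in D1 than in D0. In D2, 3 members were higher (6.74% of all genes) and 4 were lower (6.04%). Ldhb, Slc16a1 and Slc2a3 were higher again, Ldhb 4.88-fold higher (4.66 to 5.10), and Ankrd37, Aldoc, Car9 and Egln1 were lower. Ankrd37, Car9 and Aldoc passed the 5 CPM floor through D0 alone in both comparisons, so they could be called in no other direction. Over members the median stood at -0.07 (log2) in D1 and 0.06 in D2, beside 0.00 over all genes on both days. Fibroblast markers summed to 6046 CPM in D1 and 6377 in D2, against 14036 in D0, but single markers went both ways. Col1a1, Col1a2, Col3a1, Pdgfrb and Postn lay under D0 on both days, and Dcn, Lum, Thy1, Pdgfra and Fap above it. In D2, Col1a1 had 547 CPM against 5658 in D0, and Dcn had 2734 against 613. Cell cycle markers summed to 708 and 326 CPM, against 461. The part of either marker list in these differences was not tested.

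GFP-negative cells under VCR kept most enzymes at the D0 level and had more Slc16a1, Ldhb and Hif1a. At D4, 6 of 32 members were higher than in D0, beside 11% of all genes, and 1 was lower, beside 5.28%. Slc16a1 was 4.85-fold higher (4.54 to 5.18), Ldhb 4.38-fold higher (4.18 to 4.59) and Hif1a 2.56-fold higher (2.49 to 2.63) than in D0. Eno2, Slc2a3 and Hk1 were also higher, and Ankrd37, which passed the floor through D0 alone, was lower. With median ratio scaling the split was 5 higher and 4 lower, and over all genes it was 632 higher and 924 lower in place of 1184 and 570. At D8, 9 members were higher (16.4% of all genes) and 2 lower (6.12%), or 5 and 2 with median ratio scaling, which split all genes 1141 higher and 1123 lower in place of 1788 and 667. Slc16a1 was 9.14-fold higher (8.59 to 9.74), Eno2 5.34-fold higher (4.78 to 5.98), Ldhb 4.26-fold higher (4.06 to 4.46) and Hif1a 2.93-fold higher (2.86 to 3.01) than in D0. Slc2a3, Hk1, Pfkm, Slc16a3 and Slc2a1 were the other higher members, of which Slc2a3 kept the call with median ratio scaling and none kept it with TMM. Car9 and Ankrd37 were lower, both through D0 alone. Over members the median difference was 0.16 at D4 and 0.42 at D8, beside 0.15 and 0.16 over all genes. The D4 median turned to -0.16 with median ratio scaling and -0.13 with TMM, beside 0.00 over all genes, and the D8 median was 0.15 and 0.07.

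GFP-positive cells under VCR had lower levels than D0 for most HIF targets and for Ldha, with 6 members called above D0. Of these 6, Slc16a1 lost its call on both days with median ratio or TMM scaling. At D4, 6 of 32 members were higher than in D0, beside 38.5% of all genes, and 9 were lower, beside 11.3%. At D8, 6 were higher, beside 35.7%, and 10 were lower, beside 13.4%. The higher members were Slc2a3, Ldhb, Eno2, Pfkp, Hk1 and Slc16a1 on both days, in libraries that share the D0 base. Ldhb was 8.43-fold higher (8.08 to 8.81) at D4 and 14.9-fold higher (14.3 to 15.5) at D8 than in D0, Pfkp 5.39-fold higher (5.14 to 5.65) and 4.86-fold higher (4.64 to 5.10), and Hk1 4.66-fold higher (4.43 to 4.91) and 4.04-fold higher (3.84 to 4.26). The lower members at D4 were Ankrd37, Aldoc, Ldha, Egln3, P4ha1, Gapdh, P4ha2, Bnip3 and Car9. At D8 they were Ankrd37, Aldoc, Egln3, Ldha, Bnip3, P4ha1, Eno1, Gapdh, Car9 and Egln1. Ldha was 2.74-fold lower (2.71 to 2.78) at D4 and 3.14-fold lower (3.09 to 3.18) at D8 than in D0. Of the 9 HIF targets, 0 lay above D0 at D4 on this scale and 1 (Adm, at 0.355 CPM) at D8. Ankrd37, Aldoc, Egln3 and Car9 passed the floor through D0 alone. The median member difference was -0.50 at D4 and -0.61 at D8, beside 0.29 and 0.26 over all genes. With median ratio scaling the medians were -1.09 and -1.08, and 5 members were higher and 18 lower on both days. Over all genes that scaling gave 2431 higher and 2437 lower at D4, in place of 4380 and 1289, and 2532 higher and 2497 lower at D8, in place of 4038 and 1511.

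The sorted fractions share the day and the VCR label, and their comparison does not use D0. On both days GFP-positive cells had more Slc2a3 and Pfkp than GFP-negative cells and less Ldha, Slc16a1, Slc16a3, Hif1a, Bnip3, Egln3 and Aldoc. At D4, 4 of the 30 members compared were higher, beside 25.4% of all genes, and 7 were lower, beside 11.5%. The higher ones were Slc2a3, Pfkp, Eno2 and Hk1, and the lower ones were Egln3, Bnip3, Ldha, Hif1a, Slc16a1, Slc16a3 and Aldoc. At D8, 3 of 30 were higher (20.3% of all genes) and 12 were lower (12.2%). Slc2a3, Ldhb and Pfkp were higher, and the lower ones were Egln3, Slc16a1, Bnip3, Aldoc, Slc16a3, Hif1a, Ldha, P4ha1, Pdk3, Vegfa, Pdk1 and Slc2a1. P4ha1 was 2.75-fold lower (2.61 to 2.90) and Vegfa 2.66-fold lower (2.44 to 2.90) in GFP-positive than in GFP-negative cells at D8. Egln3 and Aldoc passed the 5 CPM floor through the GFP-negative library alone on both days. The median member difference was -0.55 at D4 and -0.93 at D8, beside 0.12 and 0.08 over all genes. With median ratio scaling, 2 members were higher and 12 lower at D4, and 3 and 17 at D8. All genes then split 1993 higher and 1861 lower at D4, in place of 2882 and 1311, and 1751 and 1759 at D8, in place of 2306 and 1381. Neural crest and Schwann markers, 9 genes led by Sox10, summed to 2579 and 3013 CPM in GFP-positive cells at D4 and D8, against 46.8 and 64.7 in GFP-negative cells. Cell cycle markers summed to 703 and 665 against 238 and 206. The part of cell makeup or proliferation in these member differences was not tested.

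**Figure D4:**
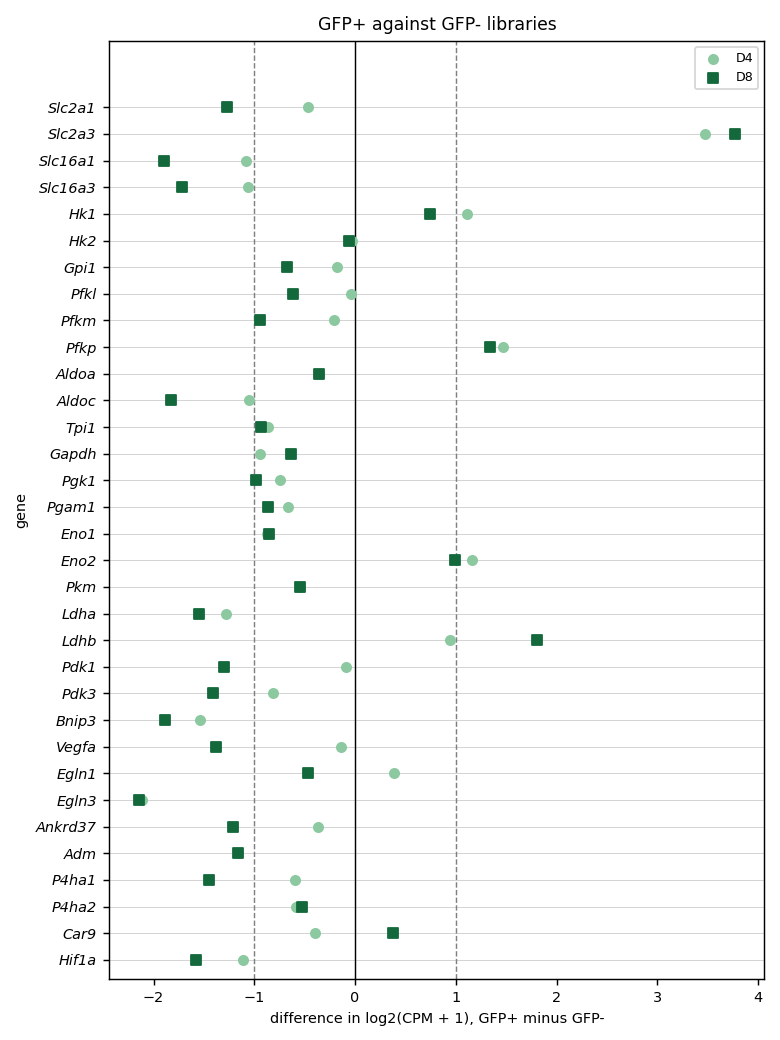
Difference in log2(CPM + 1), GFP-positive minus GFP-negative, for each of the 33 genes (rows) at D4 (light circles) and D8 (dark squares), 1 library per group, with dashed lines at the 2-fold threshold. Slc2a3 lies furthest right (3.47 and 3.77), Egln3 furthest left (-2.11 and -2.14), and most points lie left of 0.

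In the growth factor library the transporters and most HIF targets lay above D0. All 4 transporters were also called above D0 in GFP-negative D8, where 2 kept the call with median ratio scaling, against 4 in GF. HIF targets above D0 numbered 6 of 9 in GF and 5 of 9 in GFP-negative D8, where 0 were called higher. Of 32 members, 20 were higher in GF than in D0, beside 32.1% of all genes, and 0 were lower, beside 16%. All 4 transporters, 10 of 15 enzymes, Pdk1 and 5 of 8 HIF targets compared were among the higher ones. Slc16a1 was 6.14-fold higher (5.75 to 6.56) and Pfkm 4.10-fold higher (3.72 to 4.52) in GF than in D0. Hk1, Hk2, Gpi1, Pgk1 and Pkm were higher, as given above, and so were Pfkl, Eno2, Pfkp and Aldoc, each by between 2.50-fold and 3.01-fold. Egln1 was 2.07-fold higher (1.96 to 2.19), and its call was lost with median ratio or TMM scaling. Ldha, Ldhb, Gapdh and Hif1a were not called, with 2248, 56.8, 3120.0 and 292 CPM in GF against 2514, 64.3, 3429.8 and 247 CPM in D0. Members differed from D0 by a median of 1.34, beside 0.06 over all genes. TMM scaling gave 18 higher and 2 lower members, and 3141 higher and 2534 lower among all genes in place of 3663 and 1825. Set against GFP-positive D8 cells, a comparison chosen after seeing the data, 20 of 32 members were higher in GF, beside 21.5% of all genes, and 3 were lower, beside 28.2%. The 3 lower ones were Ldhb (16.8-fold lower (15.9 to 17.8)), Slc2a3 (8.91-fold lower (8.20 to 9.70)) and Eno2 (3.55-fold lower (3.28 to 3.85)). The 4 furthest above were Egln3, Slc16a3, Vegfa and Aldoc, the last 14.3-fold higher (10.8 to 19.3). P4ha1 followed at 7.36-fold higher (7.03 to 7.72), and 9 of 9 HIF targets lay above GFP-positive D8, 7 of 8 compared being called. The median member difference was 1.49, beside -0.15 over all genes, and 1.88 beside 0.00 with median ratio scaling, which gave 22 higher and 3 lower members and split all genes 3306 higher and 2225 lower in place of 2549 and 3341. Egln3, Aldoc, Ankrd37 and Car9 passed the 5 CPM floor through GF alone. Medium, growth factors, days in culture and oxygen all differ or are not given between these libraries and cannot be told apart. Erythroid markers summed to 204 CPM in GF, 86.0 in NSC and 4.50 in GFP-positive D8, against 1.06 in D0, and their part was not tested.

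Primary neural stem cells had less RNA of most enzymes than D0, on a library scale where the other genes lay mostly above D0. Of 32 members, 4 were higher in NSC than in D0, beside 49.9% of all genes, and 19 were lower, beside 17.4%. The higher ones were Aldoc, Slc2a3, Ldhb and Pfkm, and the 4 with the largest downward difference were Ldha, P4ha2, Tpi1 and Aldoa. Slc16a3, Eno1, Pgam1, Car9, Egln3, Slc2a1, Eno2, Bnip3, Pdk3, P4ha1, Gapdh, Pkm, Pgk1, Hk2 and Pfkl were the other lower members. Car9 and Egln3 passed the floor through D0 alone, as did Eno2 and Hk2, at 2.59 and 4.98 CPM in NSC. The median member difference was -1.45, beside 1.05 over all genes. Median ratio scaling gave -1.99 beside 0.64, and TMM gave -2.49 beside 0.22, with 4 members higher and 23 lower under both. Over all genes TMM gave 3514 higher and 4189 lower, in place of 6445 and 2242, and median ratio scaling gave 4962 and 3173. Set against NSC, GFP-positive D8 cells had 16 of 30 members higher, beside 17.8% of all genes, and 5 lower, beside 33.9%. Eno2, P4ha2, Ldha and Slc2a3 stood furthest above NSC, P4ha2 11.6-fold higher (10.1 to 13.3) and Slc2a3 5.92-fold higher (5.51 to 6.37). The lower ones were Aldoc, Ankrd37 (12.2-fold lower (7.47 to 21.1)), Pfkm (3.87-fold lower (3.50 to 4.27)), Egln1 and Vegfa. Eno2 and Hk2 passed the floor through GFP-positive D8 alone, and Aldoc and Ankrd37 through NSC alone. With TMM scaling 20 members were higher and 2 lower, with all genes at 3437 higher and 2652 lower in place of 2297 and 4382, and Ankrd37, Egln1 and Vegfa lost their calls. Ldhb was 2.60-fold higher (2.54 to 2.67) and Ldha 6.28-fold higher (6.03 to 6.55) in GFP-positive D8 than in NSC. Cell cycle markers summed to 2316 CPM in NSC, against 461 in D0, and their part was not tested.

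**Figure D5:**
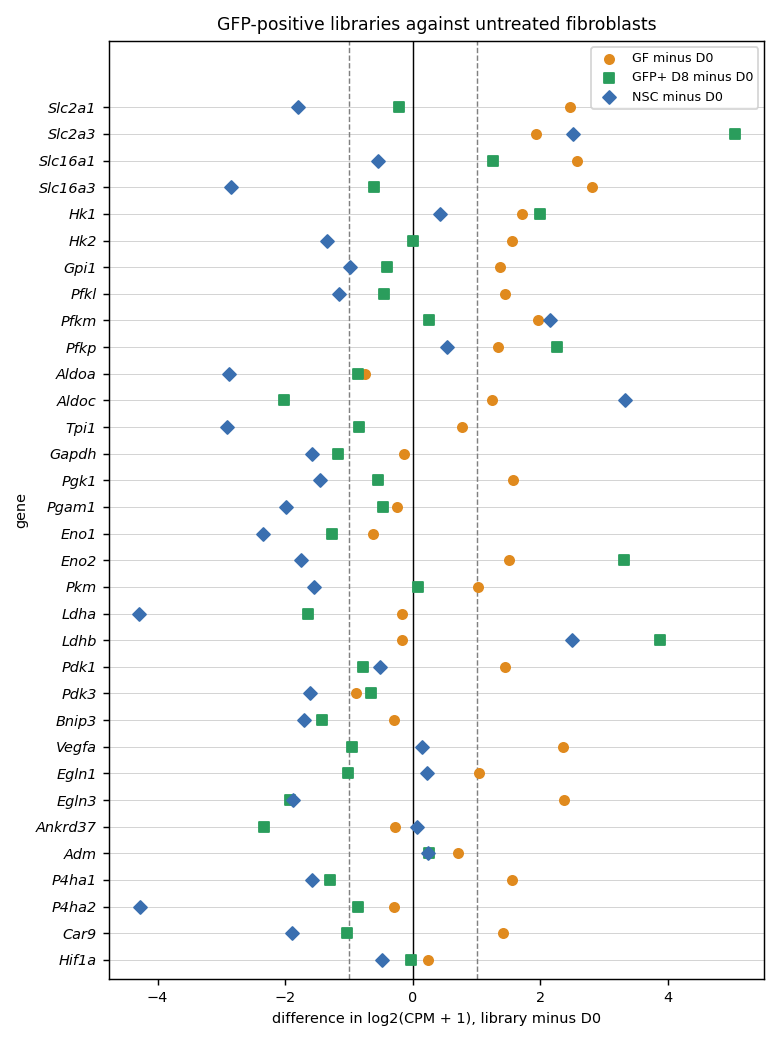
Difference in log2(CPM + 1) from D0 for each of the 33 genes (rows) in GF (circles), GFP-positive D8 (squares) and NSC (diamonds), 1 library each and all set against the same D0 library, with dashed lines at the 2-fold threshold. GF points lie to the right for most genes (Slc16a3 2.81), NSC points to the left (Ldha -4.29), and Slc2a3 lies to the right in all 3, furthest in GFP-positive D8 (5.05).

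Other genes of the same pathways, taken as 4 lists, were counted the same way. Of 13 further glycolysis genes, 7 were compared between the fractions at D4, 3 were higher in GFP-positive cells, beside 25.4% of all genes, and 0 were lower, beside 11.5%. Pfkfb4, which makes the activator of phosphofructokinase, had 64.2 CPM in GFP-positive D4 against 6.47 in GFP-negative D4, and 103 against 8.59 at D8. Its paralog Pfkfb3 had 181 CPM in GF, 13.3 in GFP-positive D8 and 35.6 in NSC, against 10.97 in D0. Of 17 further hypoxia-responsive genes, 16 were compared between the fractions at D4, of which 2 were higher and 7 lower in GFP-positive cells, beside the same shares, and at D8 2 were higher, beside 20.3% of all genes, and 6 lower, beside 12.2%. Kdm3a, a histone demethylase, was higher at D4 with 91.9 CPM in GFP-positive against 28.8 CPM in GFP-negative cells. Fam162a had 62.3 CPM in GFP-positive against 341 CPM in GFP-negative cells at D4, and Mif, a cytokine, had 198 against 696. In GF all 17 were compared with D0, and 8 were higher, beside 32.1% of all genes, and 4 lower, beside 16%. Ddit4, an inhibitor of the growth kinase complex mTORC1, had 247 CPM in GF against 7.35 in D0, and Ak4, an adenylate kinase, had 47.0 against 7.89. In NSC 2 of the 16 compared were higher than in D0, beside 49.9% of all genes, and 10 were lower, beside 17.4%, with Angptl4 at 2.09 CPM in NSC against 79.3 in D0. Among the lower ones in GF were Higd1a, with 124 CPM in GF against 281 in D0, and Mif, with 482 against 985.

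Genes of the HIF machinery itself mostly lay above D0 in the sorted GFP-positive libraries. Of 7, 4 were higher than in D0 at D4 (of 6 compared) and 4 at D8 (of 7), 5 of 7 in GF and 6 of 6 in NSC, with 0 lower in all 4 comparisons. Of all genes, 38.5% were higher in GFP-positive D4, 35.7% in GFP-positive D8, 32.1% in GF and 49.9% in NSC. In the same order, 11.3%, 13.4%, 16% and 17.4% of all genes were lower. In NSC the 6 became 4 with median ratio scaling and 3 with TMM. Arnt2, a partner of HIF alpha subunits that is known from neural cells, had 38.4 CPM in GFP-positive D4, 50.4 in GFP-positive D8, 41.9 in GF and 111 in NSC, against 5.09 in D0. Epas1, which encodes the other main HIF alpha subunit, HIF2A, had 42.1 CPM in GF and 43.7 in NSC, against 2.98 in D0. In the VCR libraries Epas1 was between 2.38 CPM in GFP-negative D4 and 6.34 CPM in GFP-positive D8. Hif3a, whose product can restrain HIF activity, had 15.5 CPM in GFP-positive D8 against 1.74 in GFP-negative D8. Of 9 genes for pyruvate entry into mitochondria, 3 (33.3%) were higher in GFP-positive D4 than in D0, under the 38.5% of all genes, and 0 were lower, beside 11.3%. In GF 0 were higher, beside 32.1%, and 2 lower, beside 16%. Pdp1, the phosphatase that reactivates pyruvate dehydrogenase, had 117 CPM in GFP-positive D4 and 17.9 in GF, against 22.4 in D0. Mpc1, a subunit of the mitochondrial pyruvate carrier, had 39.3 CPM in GF against 165 in D0. Pdk4, a kinase that restrains pyruvate dehydrogenase, had 5.96 CPM in GFP-positive D8 against 31.5 in GFP-negative D8. With median ratio scaling, 3 of the 4 HIF machinery genes and 1 of the 3 pyruvate entry genes still passed 2-fold at D4.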

How the data were processed

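RNA was measured in 9 libraries, 1 per group, and groups were taken from the sample titles. Another 4 samples, of ATAC-seq, were left out and not analysed here. The deposited table gives estimated counts per gene symbol, made by the authors. The submitters' processing notes name kallisto 0.43.1 and the builds GRCm38 and mm10. The transcript annotation is not given in the sources used here. Per the labels, libraries were made with a NEBNext Ultra RNA kit, and use of strand is not given.

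CPM were computed from the column totals of 20104940 to 36751356. A floor of 3 counts is 0.0816 to 0.149 CPM. CPM intervals and ratio intervals used counts rounded to whole numbers. There were 0 pairs of libraries with identical values. Calls used a pseudocount of 1, a difference of 1 in log2 and a floor of 5 CPM. Medians used genes that reached 1 CPM in some library. With 1 library per group no p-value or standard deviation is given, and nothing says how cells were pooled. Alternatives were pseudocounts of 0.1 and 5, no floor, all members found, median ratio factors (DESeq2 1.42.0, over 8291 genes), TMM (edgeR 4.0.16, R 4.3.3), enzyme shares without Gapdh or over a reduced total, and ratios with listed copies added. Both count packages were used for scaling factors alone. The calls were tested on simulated data that held counting error only, so spread between cultures was not covered. Python 3.11.15, numpy 2.4.6, pandas 2.3.3, scipy 1.17.1 and matplotlib 3.10.9 were used.

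Members and lists were chosen with earlier results of these data known. Every member is named; those with 5 CPM or more somewhere and a span of 2 or more in log2, plus Hif1a, Slc2a1, Vegfa, Ldha and Gapdh, are given in every library, and at most 4 called members in each direction are picked out as furthest apart. Gene positions and promoters are RefSeq's on GRCm38.p6, matched by symbol: 33 of 33 positions and 32 of 33 promoters. A marker gene is not reported here and stays out of its list's sum. Marker lists of muscle, endothelial cells and keratinocytes were also summed, to at most 92.6, 23.2 and 8.98 CPM in any library.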

Additional observations from a re-analysis of the deposited data

Results flagged for a closer look

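Members called in opposite directions against D0 in the GF library and in GFP-positive D8 cells are listed here because their differences under the 2 treatments had opposite signs. With 1 library in each group the difference between the treatments was not tested, and both differences use the same D0 library. Values are differences in log2(CPM + 1).

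Aldoc, the brain-type aldolase, stood 1.25 above D0 in GF and at -2.03 against D0 in GFP-positive D8. Egln1, the main HIF prolyl hydroxylase gene, stood at 1.04 in GF and -1.02 in GFP-positive D8. The HIF-induced hydroxylase gene Egln3 stood at 2.37 in GF and -1.93 in GFP-positive D8. P4ha1, for collagen hydroxylation, stood at 1.56 in GF and -1.30 in GFP-positive D8. Car9, the carbonic anhydrase, stood at 1.41 in GF and -1.03 in GFP-positive D8. Aldoc, Egln3 and Car9 were under 5 CPM in GFP-positive D8 and passed the floor through D0 alone, so there they could be called in no other direction. Egln1 in GF lost its call with median ratio or TMM scaling.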

How the results depend on the processing

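No direction of a called member difference turned under any alternative. With a pseudocount of 0.1 all 178 called member differences passed 2-fold again, as did 151 with a pseudocount of 5, 167 with median ratio scaling and 163 with TMM. Medians over members moved most for libraries far from D0: with TMM to 0.066 (GFP-negative D8), -1.07 (GFP-positive D4), -1.13 (GFP-positive D8) and -2.49 (NSC), and with median ratio scaling to -1.09, -1.08 and -1.99 for GFP-positive D4, GFP-positive D8 and NSC, all against D0. Counts of lower members against D0 became 4 (GFP-negative D4), 18 (GFP-positive D4) and 18 (GFP-positive D8) with median ratio scaling, and 4, 18, 19 and, for GF, 2 with TMM. Higher members in GFP-negative D8 became 5 with median ratio scaling and 4 with TMM. Between the D4 fractions both scalings gave 2 higher and 12 lower, and TMM gave 2 lower in GFP-positive D8 against NSC. A pseudocount of 5 left 3 lower in D1, 0 in D2 and 0 in GFP-negative D8. In D2, Egln1 (-0.99), Ankrd37 (-0.99), Aldoc (-0.90) and Car9 (-0.73) all fell short of the threshold, because a larger pseudocount shrinks differences of low genes. The enzyme share over the reduced total, which keeps 12 enzymes, was 0.537% in D0, 0.409% in D1, 0.484% in D2, 0.366% in GFP-positive D4, 0.506% in GFP-negative D4, 0.356% in GFP-positive D8, 0.537% in GFP-negative D8, 0.668% in GF and 0.133% in NSC. Without Gapdh it was 0.936%, 0.832%, 0.990%, 0.685%, 0.990%, 0.667%, 1.00%, 1.20% and 0.254% in the same order. Adding listed copies moved 0 of 99 paralog ratios beyond its interval. No paired analysis was possible because each group has 1 library and the labels give no replicate numbers. Without replicates the spread between cultures is unknown, and depth limits Adm, Ankrd37, Car9, Egln3, Aldoc and Eno2 most, which had under 100 counts in at least 1 library.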
